A study of Mus musculus with 16 samples.

Results

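Glul and a small group of genes that make, break down, transfer or carry glutamine and glutamate were followed in 3T3-L1 cells, a clonal line of mouse fibroblasts that can be turned into adipocytes in culture. The genes were Glul, Glud1, Got1, Asns, Slc1a5 and Slc38a2, and every array probe whose annotation named exactly 1 of these 6 genes was kept, which gave 10 of the 38467 probes for 6 of the 19640 genes with such a probe. Glul, Glud1 and Got1 had 1 probe each, Asns and Slc38a2 had 2 each, and Slc1a5 had 3. The genes were proposed with their dex responses on these arrays known, so the differences between dex and DMSO in these 6 genes are given as descriptions, with no test. The groups were dex (the synthetic glucocorticoid dexamethasone) for 36 h, its DMSO vehicle for 36 h, dex for 2 h and DMSO for 2 h, with 4 biological replicates and so 4 arrays in each. The labels give no dose. All groups were the same line, and each array set the Cy5-labelled cDNA of 1 sample against a Cy3-labelled pool of the samples, so a value is a log ratio of sample over pool. No source used here states the base of the logarithm, and it was taken as 2, the base of limma, which the design text names. A ratio to a pool gives no absolute level, so genes are compared only by their differences between groups, and fewer cells of a type cannot be told apart from less RNA per cell.

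Glutamine is the most abundant free amino acid of blood and cells, and it carries nitrogen between tissues. Glutamine synthetase, the product of Glul, joins ammonia to glutamate to form glutamine, and its gene is a classical target of glucocorticoids in muscle, lung and fat cells. Glutamine amidotransferases use the amide nitrogen to build other molecules, glutamate dehydrogenase and the aminotransferases exchange glutamate with 2-oxoglutarate, and membrane carriers set how much glutamine enters a cell. When amino acids run short, the kinase GCN2 and the transcription factor ATF4 raise a set of genes that includes Asns and Slc38a2.

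Promoters are shown for the genes with the widest contrast in behaviour, which are Glul (higher in dex), Slc38a2 (lower in dex) and Asns (no difference beyond the spread of the arrays). They are RefSeq sequences of build GRCm38.p6, running 5′ to 3′ from 250 bases before to 50 bases after the annotated start, and capitals mark motif matches. Glul lies on the plus strand at chr1:153899679-153899978, Slc38a2 on the minus strand at chr15:96699679-96699978 and Asns on the minus strand at chr6:7693160-7693459.
Glul: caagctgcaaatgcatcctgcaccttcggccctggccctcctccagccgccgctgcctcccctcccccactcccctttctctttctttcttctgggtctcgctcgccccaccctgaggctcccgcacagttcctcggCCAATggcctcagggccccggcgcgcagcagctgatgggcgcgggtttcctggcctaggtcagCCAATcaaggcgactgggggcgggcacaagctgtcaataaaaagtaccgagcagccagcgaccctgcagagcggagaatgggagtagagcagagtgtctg
Slc38a2: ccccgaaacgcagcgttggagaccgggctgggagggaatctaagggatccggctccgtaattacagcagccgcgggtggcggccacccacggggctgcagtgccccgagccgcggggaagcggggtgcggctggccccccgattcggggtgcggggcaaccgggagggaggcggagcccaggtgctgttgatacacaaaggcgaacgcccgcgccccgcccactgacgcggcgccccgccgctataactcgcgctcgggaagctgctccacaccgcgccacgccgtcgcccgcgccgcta
Asns: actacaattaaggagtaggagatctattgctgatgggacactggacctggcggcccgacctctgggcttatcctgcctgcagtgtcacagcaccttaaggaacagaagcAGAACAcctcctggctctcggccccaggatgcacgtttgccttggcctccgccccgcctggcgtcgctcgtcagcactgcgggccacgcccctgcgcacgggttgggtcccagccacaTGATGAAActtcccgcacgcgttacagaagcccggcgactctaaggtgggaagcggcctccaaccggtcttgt
The capitals in Glul are the CCAAT box, at -113 and -50 from the start. In Asns they are the glucocorticoid half-site AGAACA at -141 and TGATGAAA at -23, a match to the core of the amino acid response element, TGATGNAA. The 5 motifs searched on both strands were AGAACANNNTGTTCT and GNACANNNTGTNC, the full and relaxed palindromes bound by the glucocorticoid receptor, AGAACA, TGATGNAA and CCAAT. The half-site lies within the full palindrome, so matches to these motifs can overlap. Neither palindrome lay in any of the 5 windows at hand for these genes. The half-site lay only in Asns among those 5, while Got1 had 1 amino acid response element core and 6 CCAAT boxes, and Glud1 had no match. Among all 32851 mouse windows of the same length, 0.00913% held the full palindrome, 0.475% the relaxed one, 19.0% the half-site, 3.97% the response element core and 37.4% the CCAAT box. A match is a run of letters and not a shown binding site, and its lack says nothing of sites outside the window.

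The arrays at 2 h were noisier than those at 36 h. The SD of an array's values around its group mean was 0.168 to 0.435 at 2 h and 0.108 to 0.205 at 36 h, and the array of DMSO 2 h replicate 4 stood apart, with that SD at 0.435 and a mean correlation of -0.104 with its group. Array medians lay between -0.011 and 0.0083, and no value of the 6 genes was missing. Known glucocorticoid targets checked the treatment. The receptor cochaperone gene Fkbp5 was higher in dex by 3.11 ± 0.12 at 36 h and 2.36 ± 0.12 at 2 h, and Tsc22d3, which encodes the leucine zipper protein GILZ, by 2.43 ± 0.24 and 2.76 ± 0.24 on its quoted probe (log2 difference ± SE of the fit). All 4 probes of Tsc22d3 passed limma's adjusted p under 0.05 at 36 h and 3 at 2 h, where the other read -0.07, and with its probes averaged the differences were 1.21 and 1.17. The clock gene Per1 was higher by 1.06 ± 0.16 at 2 h (limma's adjusted p = 0.0013) and did not pass at 36 h (0.48 ± 0.16, adjusted p = 0.0856). The receptor gene Nr3c1 passed at neither time (-0.38 ± 0.12 at 36 h and -0.48 ± 0.12 at 2 h, adjusted p = 0.0685 and 0.0568). Since the values are ratios, defining markers could not be checked for presence. At 36 h, 6 of 10 fibroblast and preadipocyte markers were lower in dex by limma's adjusted p under 0.05 (list median -0.39), 2 of 6 adipocyte markers were higher (0.19), 1 of 6 macrophage markers was lower (-0.21), 0 of 5 endothelial markers passed (0.0012; 0 at an unadjusted p under 0.05) and 1 of 4 epithelial markers was higher (0.12). At 2 h, 1 fibroblast marker was lower, 1 adipocyte marker was higher and 1 lower, and no marker of the other 3 lists passed, with 2 of them at an unadjusted p under 0.05. Of all genes, 6.88% passed as higher and 4.96% as lower at 36 h, and 1.97% and 1.21% at 2 h. A count of 1 in lists this short is not read further. The part of such markers in the differences below was not tested.

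Glul, the enzyme that makes glutamine, was far higher in dex than in DMSO at both times. At 36 h its log2 ratios to the pool were 1.11, 1.44, 1.05 and 1.45 in dex and -2.97, -2.81, -2.13 and -2.39 in DMSO. At 2 h they were 1.52, 1.46, 1.43 and 1.43 in dex and -1.26, -1.19, -2.01 and -2.05 in DMSO. No array of one treatment came near an array of the other, and the gap between the lowest dex array and the highest DMSO array was 3.17 at 36 h and 2.62 at 2 h. The difference between dex and DMSO was 3.84 ± 0.21 at 36 h, a 14.3-fold higher ratio, and 3.09 ± 0.21 at 2 h, which is 8.51-fold. It was the highest difference of all 38467 probes at 2 h and the ninth highest at 36 h.

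The Glul values over time are given as a description. In DMSO the mean was -2.58 ± 0.39 at 36 h and -1.63 ± 0.46 at 2 h (SD, n = 4 each), a difference of -0.95 ± 0.21 in which the arrays of the 2 times did not overlap, by a gap of 0.080. In dex the mean was 1.26 ± 0.21 at 36 h and 1.46 ± 0.05 at 2 h (SD, n = 4 each), and the arrays overlapped, with a difference of -0.20 ± 0.21. The dex 2 h arrays had the smallest spread of the 4 groups for this gene. The dex effect at 36 h minus that at 2 h was 0.75 ± 0.30. By limma over all probes this change did not pass (adjusted p = 0.262, and 0.111 to 0.572 over the alternatives), so a wider effect at 36 h is not shown. That adjusted p is a limit only, as Glul was chosen with its dex response known. It is not given for the other genes of the group. The DMSO difference over time lay at the threshold (adjusted p = 0.0483, likewise a limit only). It missed it under 17 of 24 alternatives (adjusted p = 0.0545 to 0.248), among them each of 13 single arrays left out, which were all but DMSO 36 h replicate 3 and DMSO 2 h replicates 3 and 4.

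**Figure D1:**
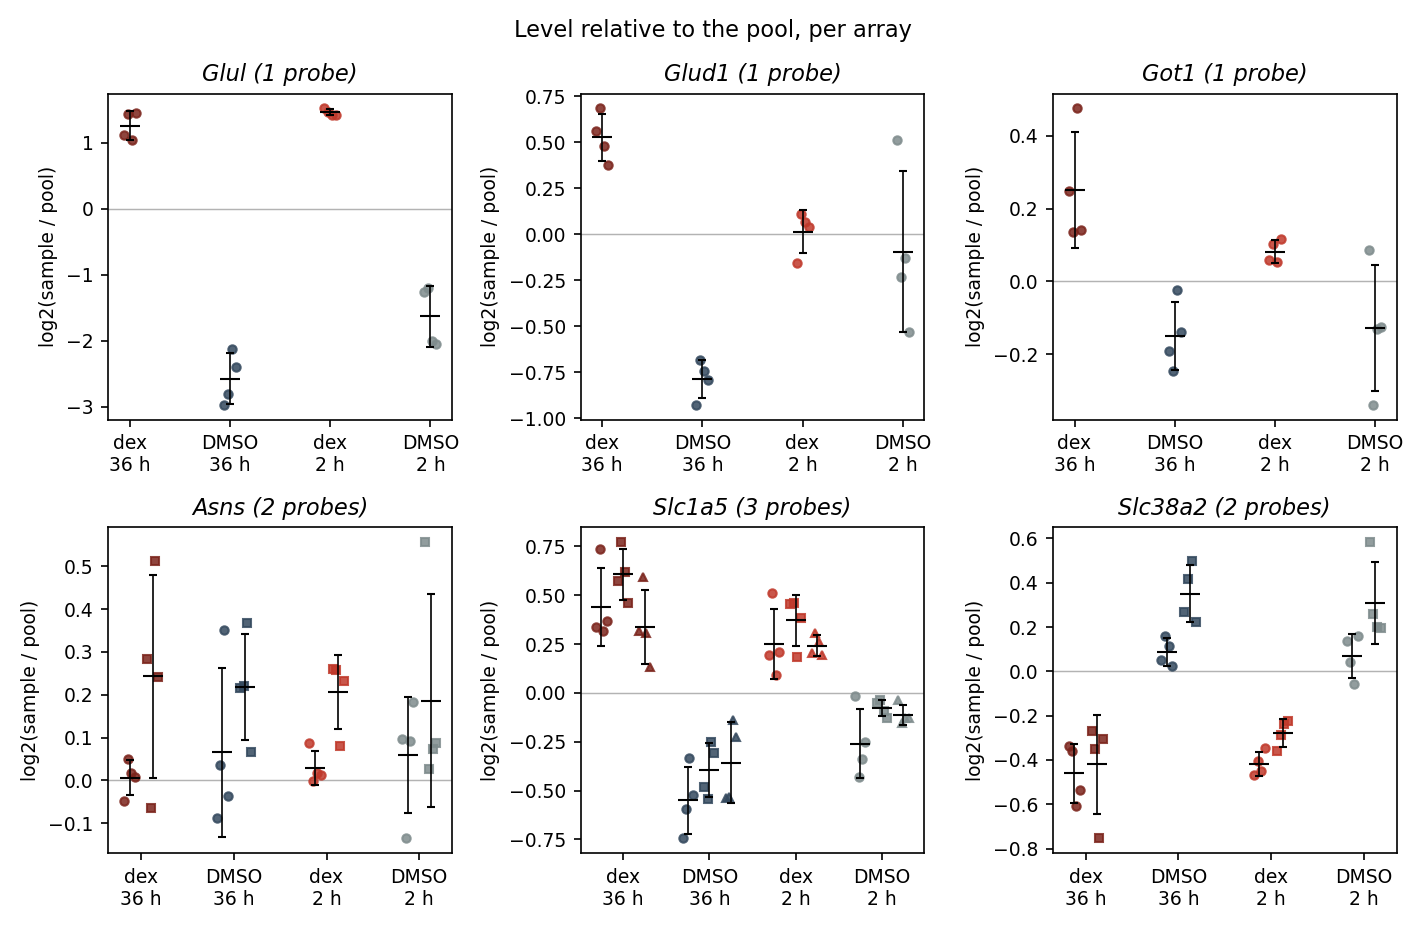
Log2 ratio of sample over pool (vertical axis) of the 6 genes in dex and DMSO at 36 h and at 2 h, with 1 point per array, a marker shape per probe, and bars for the mean ± SD of 4 arrays. Glul arrays in dex all lie above 1 and those in DMSO all below -1, Slc38a2 lies lower in dex at both times, and the Asns groups overlap.

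Glud1, mitochondrial glutamate dehydrogenase, which turns glutamate into 2-oxoglutarate and ammonia, differed at 36 h and not clearly at 2 h. At 36 h its log2 ratios were 0.56, 0.68, 0.48 and 0.38 in dex and -0.93, -0.68, -0.74 and -0.79 in DMSO. At 2 h they were -0.16, 0.11, 0.06 and 0.04 in dex and 0.51, -0.23, -0.13 and -0.53 in DMSO. The groups were apart by a gap of 1.06 at 36 h, while at 2 h the DMSO arrays spread on both sides of all dex arrays. The difference was 1.31 ± 0.16 at 36 h (2.48-fold) and 0.11 ± 0.16 at 2 h, and the effect at 36 h minus that at 2 h was 1.20 ± 0.23. Over time the fitted values ran opposite ways. In dex the ratio at 36 h minus that at 2 h was 0.51 ± 0.16, and in DMSO it was -0.69 ± 0.16. Neither passed limma's test over all probes (adjusted p = 0.146 in dex and 0.0659 in DMSO), although the arrays of the 2 times did not overlap in either treatment.

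Got1, the cytosolic aspartate aminotransferase, which moves the amino group between glutamate and oxaloacetate, had a smaller difference of the same direction. At 36 h its log2 ratios were 0.25, 0.14, 0.48 and 0.14 in dex and -0.19, -0.25, -0.02 and -0.14 in DMSO, so all dex arrays lay above all DMSO arrays. At 2 h they were 0.06, 0.10, 0.05 and 0.12 in dex and 0.09, -0.34, -0.13 and -0.13 in DMSO, where 1 DMSO array reached the dex range. The difference was 0.40 ± 0.10 at 36 h (1.32-fold) and 0.21 ± 0.10 at 2 h. Between 36 h and 2 h the ratio differed by 0.17 ± 0.10 in dex and -0.02 ± 0.10 in DMSO (limma's adjusted p = 0.498 and 0.967).

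Asns, asparagine synthetase, which uses the amide nitrogen of glutamine to make asparagine, showed no difference beyond the spread of the arrays on either probe. On probe mMA033102 the log2 ratios at 36 h were -0.05, 0.05, 0.02 and 0.01 in dex and -0.09, 0.04, 0.35 and -0.04 in DMSO. At 2 h that probe gave 0.09, -0.00066, 0.02 and 0.01 in dex and 0.10, -0.14, 0.09 and 0.18 in DMSO. The groups overlapped at both times. The difference was -0.06 at 36 h, with a 95% interval of -0.26 to 0.14, and -0.03 at 2 h, with an interval of -0.23 to 0.17. On probe mMC002713 the differences were 0.03 ± 0.13 at 36 h and 0.02 ± 0.13 at 2 h, again with overlapping groups. Between 36 h and 2 h neither probe passed, in dex (limma's adjusted p = 0.961 and 0.951) or in DMSO (0.991 and 0.965).

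The carriers Slc1a5 and Slc38a2 differed between dex and DMSO in opposite directions. Slc1a5 encodes ASCT2, a sodium-dependent exchanger of glutamine and other neutral amino acids, and it was higher in dex on all 3 probes at both times. On probe mMO035660 the log2 ratios at 36 h were 0.57, 0.77, 0.62 and 0.46 in dex and -0.48, -0.54, -0.25 and -0.31 in DMSO. At 2 h they were 0.45, 0.46, 0.19 and 0.38 in dex and -0.05, -0.04, -0.09 and -0.13 in DMSO. Dex arrays lay above DMSO arrays without overlap at both times. The difference on that probe was 1.0 ± 0.09 at 36 h (2.00-fold) and 0.45 ± 0.09 at 2 h (1.36-fold), and the effect at 36 h minus that at 2 h was 0.55 ± 0.13. Probe mMC009240 gave 0.99 ± 0.13 at 36 h and 0.51 ± 0.13 at 2 h, and probe mMO035686 gave 0.70 ± 0.11 and 0.35 ± 0.11, also without overlap. The 3 probes thus shared direction and order in time, with the lowest values on mMO035686. On mMO035660 the ratio at 36 h was 0.24 ± 0.09 above that at 2 h in dex and differed by -0.32 ± 0.09 in DMSO, and neither passed (limma's adjusted p = 0.257 and 0.149).

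Slc38a2 encodes SNAT2, a sodium-coupled carrier of small neutral amino acids that cells raise when amino acids are scarce, and it was lower in dex on both probes at both times. On probe mMA034874 the log2 ratios at 36 h were -0.34, -0.36, -0.61 and -0.54 in dex and 0.05, 0.16, 0.11 and 0.02 in DMSO. At 2 h they were -0.47, -0.41, -0.45 and -0.35 in dex and 0.14, 0.04, -0.06 and 0.16 in DMSO. All dex arrays lay below all DMSO arrays. The difference was -0.55 ± 0.08 at 36 h (1.46-fold lower) and -0.49 ± 0.08 at 2 h (1.40-fold lower). On probe mMC012337 it was -0.77 ± 0.12 at 36 h and -0.59 ± 0.12 at 2 h, also without overlap. The dex effect at 36 h minus that at 2 h was -0.06 ± 0.11 on mMA034874 and -0.18 ± 0.16 on mMC012337, and on mMA034874 the ratio did not differ detectably over time in dex (-0.04 ± 0.08, limma's adjusted p = 0.887) or in DMSO (0.02 ± 0.08, adjusted p = 0.968).

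**Figure D2:**
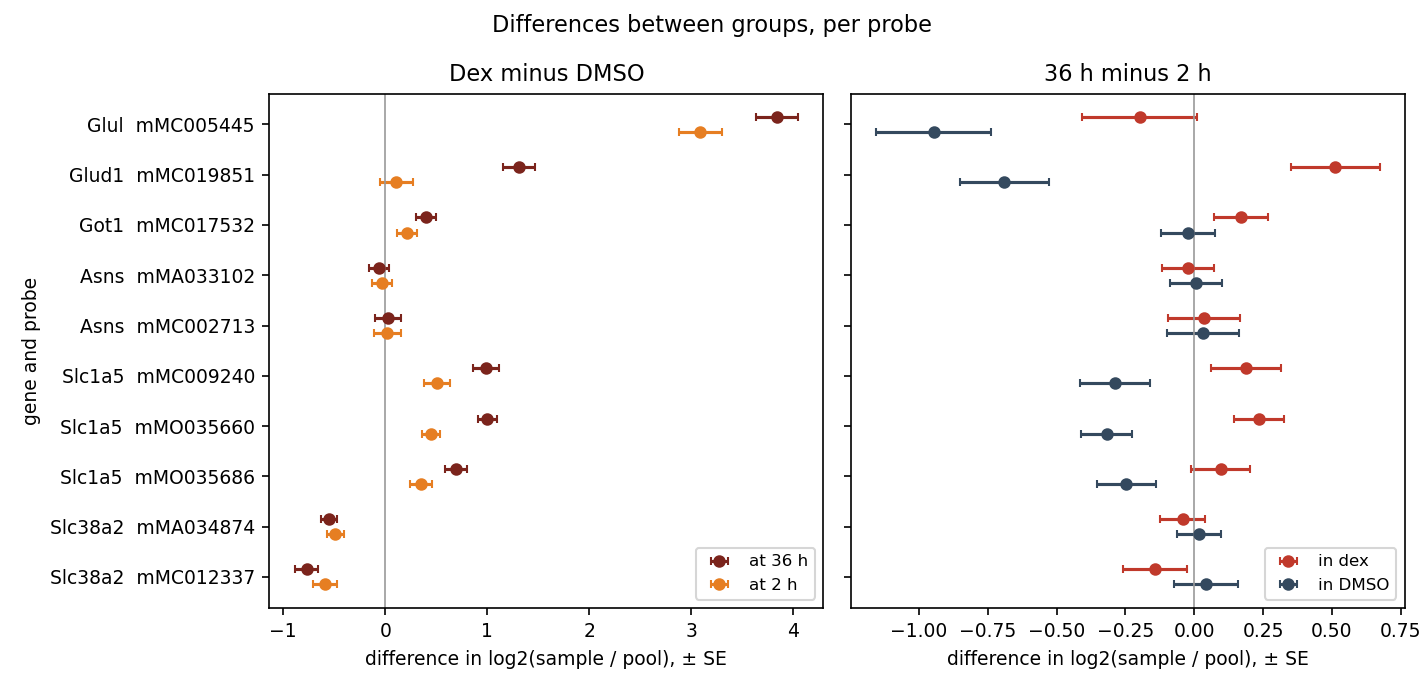
Differences in log2 ratio (horizontal axis) for the 10 probes of the 6 genes, dex minus DMSO at 36 h and 2 h on the left and 36 h minus 2 h in dex and in DMSO on the right, with bars for ± SE of the fit. Glul reaches 3.84 at 36 h, Slc38a2 lies below 0 at both times, and both Asns probes lie near 0.

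Over the 10 probes, the median difference between dex and DMSO was 0.55 at 36 h, where that of all probes was -0.0043, and 0.16 at 2 h, where it was -0.0097. At 36 h, 6 probes were above and 2 below without overlap of the arrays, where 26.8% of all probes did not overlap (13% above and 13.8% below). At 2 h, 4 were above and 2 below without overlap, where 5.89% of all probes did not overlap (3.07% above and 2.81% below). These counts follow from the choice of the genes and nothing is read from them. These genes were selected on values of dex against DMSO, as their dex responses on these arrays were known. The comparisons over time use the same arrays, so they are not free of that choice. Their counts and calls below are therefore given as a description, and nothing is read from them either. In DMSO, 3 probes were below at 36 h without overlap and 7 overlapped (of all probes, 4.08% were above and 6.44% below, or 10.5% in all). By limma's adjusted p under 0.05, 1 of the 10, that of Glul, was lower, a call that most alternatives end as described above (0.816% of all probes passed, 0.195% as higher and 0.621% as lower). At an unadjusted p under 0.05 there were 5 of the 10, that of Glul among them. In dex, 2 probes were above without overlap (11.9% of all probes did not overlap, with 5.31% above and 6.56% below). None of the 10 passed limma's test there, with 2 at an unadjusted p under 0.05 (1.68% of all probes passed, 0.736% as higher and 0.944% as lower).

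The other genes of these routes came from 8 lists (core enzymes, aminotransferases, amidotransferases, the proline and GABA arms, glutathione synthesis, transporters, ATF4 response genes and aminoacyl-tRNA synthetases). Of their 91 genes, 83 had a probe naming that gene alone. The lists, too, were chosen with earlier results of these data known. Shares and adjusted p of listed genes, here and below, are therefore given as a description. An excess over the share of all genes supports nothing. At 36 h, 10 of the 83 were higher and 7 lower in dex, which is 20.5% where 11.7% of all genes passed (6.88% higher and 4.96% lower), and the median was 0.04, against -0.0017 over all genes. Without the array of DMSO 36 h replicate 2 the count was 11, with 8 higher and 3 lower. At 2 h, 3 were higher and 1 lower, which is 4.82% where 3.18% of all genes passed (1.97% higher and 1.21% lower), and 18 had an unadjusted p under 0.05. Without dex 2 h replicate 3 the count was 2.

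Aminotransferases, which pair glutamate with 2-oxoglutarate, gave 4 higher and 0 lower of 11 at 36 h, with a list median of 0.35. Of all genes, 6.88% passed as higher and 4.96% as lower. Bcat2, the mitochondrial branched-chain aminotransferase, was higher by 0.81 ± 0.11 (limma's adjusted p = 2.3e-04), and Got2, the mitochondrial partner of Got1, by 0.59 ± 0.11 (adjusted p = 0.0032). A further Got2 probe passed at 0.39, and its remaining probe read -0.25 and did not pass. Kyat3, a kynurenine aminotransferase, was higher by 0.44 ± 0.11 on 1 of 2 probes (adjusted p = 0.022), and Gpt2, mitochondrial alanine aminotransferase, by 0.35 ± 0.10 (adjusted p = 0.042). These last 2 were near the threshold, and their adjusted p over the alternatives ran from 8.9e-05 to 0.258 for Kyat3 and from 9.2e-05 to 0.144 for Gpt2. Kyat3 missed it without any 1 of dex 36 h replicates 1 and 3 and DMSO 36 h replicates 1, 2 and 4 (adjusted p = 0.0567 to 0.0848), and Gpt2 without any 1 of dex 36 h replicates 1 to 3, all 4 of DMSO 36 h, dex 2 h replicates 3 and 4 and DMSO 2 h replicate 3 (adjusted p = 0.0549 to 0.144). With the probes of a gene averaged, Got2 also missed it (adjusted p = 0.341). Bcat1 and Psat1 gave 0.43 and 0.36 and did not pass.

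Glutathione synthesis starts from glutamate, and at 36 h both subunits of its first enzyme, glutamate-cysteine ligase, were higher in dex. The catalytic subunit gene Gclc gave 0.62 ± 0.14 (limma's adjusted p = 0.0105) and the modifier subunit gene Gclm 0.49 ± 0.09 (adjusted p = 0.0017). Oplah, 5-oxoprolinase, which returns glutamate to this cycle, was lower by 0.47 ± 0.11 on the log2 scale (adjusted p = 0.0164), and Gss, at 0.22, did not pass. So 2 of 4 genes were higher and 1 lower, where 6.88% of all genes passed as higher and 4.96% as lower. Without DMSO 36 h replicate 2 or without dex 36 h replicate 3, Oplah missed the threshold (adjusted p = 0.0591 and 0.056).

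Of the 22 other transporters, 2 were higher and 1 lower at 36 h, where 6.88% of all genes passed as higher and 4.96% as lower. The counts are near those shares and are not read further. Slc1a3, a glutamate carrier known from astrocytes, differed by -0.90 ± 0.15 (limma's adjusted p = 0.0011) and was lower on both probes. Slc7a7, a light chain of a dibasic and neutral amino acid exchanger, was higher by 0.37 ± 0.10 on 1 of 3 probes (adjusted p = 0.028), and its other 2 probes read -0.19 and -0.0055. Slc3a2, the heavy chain that such exchangers share, passed on 1 probe at 0.40 (adjusted p = 0.0059) and not on the other, at 0.20 (adjusted p = 0.168). Over the alternatives the adjusted p of Slc7a7 ran from 3.8e-04 to 0.806, and it missed the threshold without any 1 of dex 36 h replicates 1 and 2 and DMSO 36 h replicates 1, 3 and 4 (adjusted p = 0.0595 to 0.0917).

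The ATF4 list, most of whose genes share a regulator with Asns and Slc38a2, did not move in 1 direction. It also holds Atf4 itself and the kinases Eif2ak4 and Eif2ak3, which act upstream of ATF4. At 36 h, 2 of 19 were higher and 4 lower in dex, with a list median of -0.14. Of all genes, 6.88% passed as higher and 4.96% as lower. Mthfd2, a mitochondrial folate enzyme, was higher by 1.88 ± 0.15, or 3.67-fold (limma's adjusted p = 9.3e-07), and Vldlr, a lipoprotein receptor, by 1.62 ± 0.10 with all 5 probes passing (adjusted p = 5.4e-08). Atf5, a transcription factor related to ATF4, was lower by 0.60 ± 0.08 on the log2 scale (adjusted p = 2.9e-04), and Eif2ak4, which encodes the amino acid sensor GCN2, by 0.39 ± 0.09 (adjusted p = 0.0136). The other 2 lower genes, named after their values were seen, were Chac1, a glutathione-degrading enzyme, at -0.33 ± 0.09 (adjusted p = 0.0403) and Trib3, a pseudokinase, at -0.36 ± 0.10 on 1 of 4 probes (adjusted p = 0.0378). The remaining Trib3 probes read 0.14, -0.23 and 0.11 and did not pass. Both genes were near the threshold, and how these 2 calls hold with single arrays left out is not given here. Without DMSO 36 h replicate 2, Eif2ak4 missed the threshold (adjusted p = 0.0533).

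At 2 h all calls of the 8 lists were in the ATF4 list. Vldlr was higher by 1.26 ± 0.10 (limma's adjusted p = 2.4e-06) and Mthfd2 by 0.74 ± 0.15 (adjusted p = 0.0138). Eif2ak3, which encodes the endoplasmic reticulum stress kinase PERK, was higher by 0.41 ± 0.10 (adjusted p = 0.0418), and Eif2ak4 was lower by 0.44 ± 0.09 on the log2 scale (adjusted p = 0.0124). The 64 genes of the other 6 lists with a probe had 0 calls by limma, with 11 at an unadjusted p under 0.05. Of all genes, 3.18% passed at 2 h. Without DMSO 2 h replicate 4, the array that stood apart, Eif2ak3 missed the threshold (adjusted p = 0.0638), as it did without any 1 of 10 other arrays (adjusted p = 0.0533 to 0.138), which were dex 36 h replicates 1 and 4, DMSO 36 h replicates 1, 2 and 4, dex 2 h replicates 1 to 3 and DMSO 2 h replicates 2 and 3. Mthfd2 missed it without dex 2 h replicate 3 or 4 (adjusted p = 0.0579 and 0.0587).

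The 16 genes of the amidotransferase and the proline and GABA lists had 0 calls at 36 h by limma, with 5 at an unadjusted p under 0.05. Gad1, glutamate decarboxylase, read -0.71 ± 0.46 there, with an SD of 1.44 among the dex arrays against 0.05 among the DMSO arrays (n = 4 each), and was 0.0080 without dex 36 h replicate 4. Of 11 aminoacyl-tRNA synthetases, which load amino acids on tRNA, 0 were higher and 1 lower at 36 h. It was the alanyl enzyme Aars, lower in dex than in DMSO by 0.47 ± 0.09 on the log2 scale (limma's adjusted p = 0.0046). Of all genes, 11.7% passed at 36 h (6.88% higher and 4.96% lower), and a count of 1 is not read further.

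**Figure D3:**
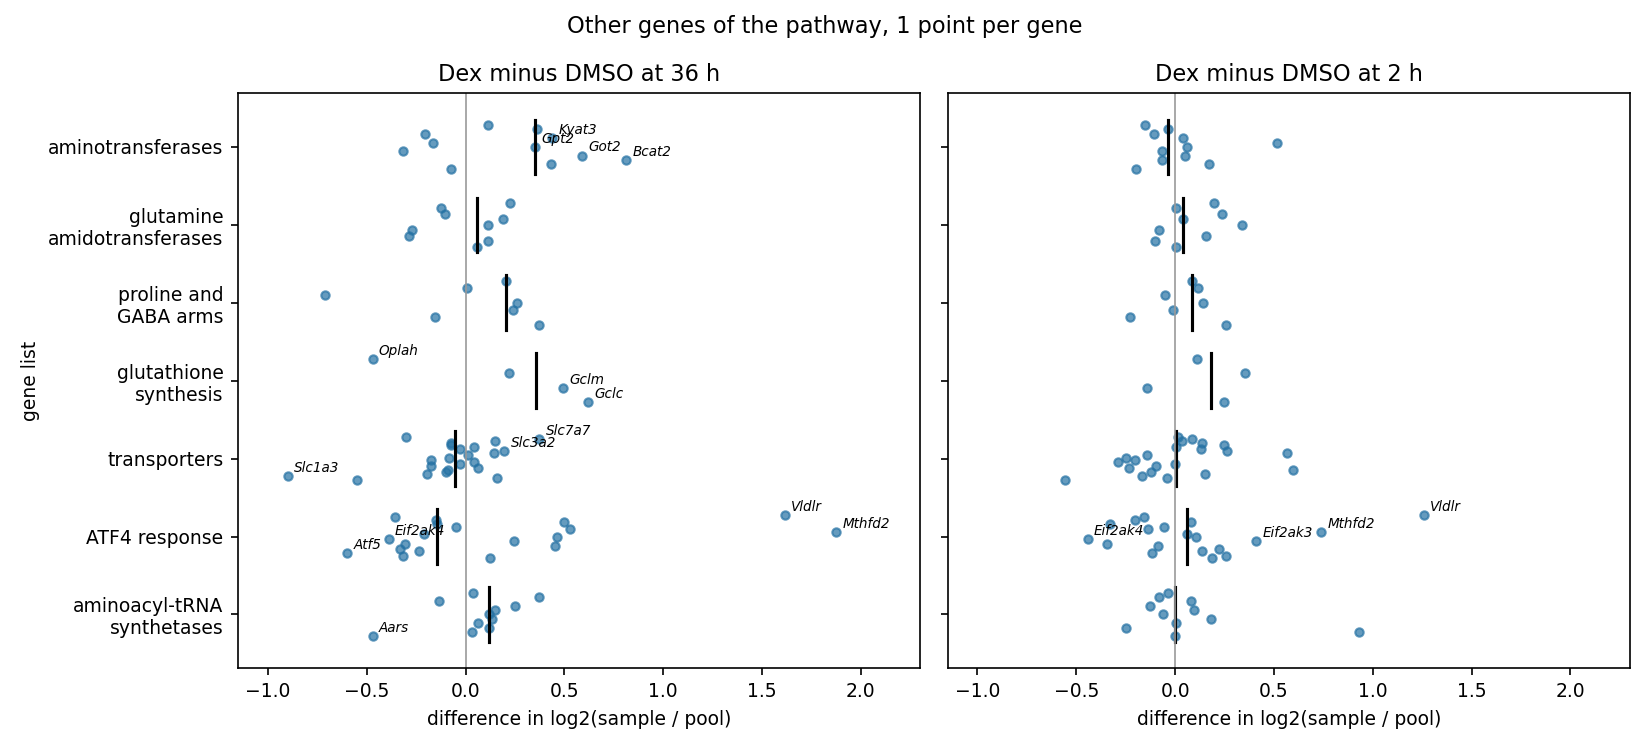
Dex minus DMSO in log2 ratio (horizontal axis) at 36 h (left) and 2 h (right) for the 83 other genes in 7 of the 8 lists (the core list has no other measured gene), with 1 point per gene at its quoted probe, a black bar at the list median, and names for genes past limma's adjusted p of 0.05 among those described. Aminotransferases at 36 h have a median of 0.35, and Mthfd2 and Vldlr lie farthest to the right.

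The dex effect itself differed between 36 h and 2 h in 6 of the 83 genes, 3 with a higher and 3 with a lower value at 36 h, which is 7.23% where 3.48% of all genes passed (2.12% higher and 1.36% lower). Bcat2 gave 0.88 ± 0.16 (limma's adjusted p = 0.0064), Gclm 0.63 ± 0.12 (adjusted p = 0.0097) and Mthfd2 1.14 ± 0.22 (adjusted p = 0.0092). Chac1 gave -0.55 ± 0.13 (adjusted p = 0.0394), Atf5 -0.48 ± 0.12 (adjusted p = 0.0464), and Atf4 itself passed on 1 of 3 probes, at -0.44 ± 0.10 (adjusted p = 0.0344). The 3 negative values were the less stable ones: without any 1 of dex 2 h replicates 1 and 3, DMSO 2 h replicate 2, dex 36 h replicate 1 and DMSO 36 h replicates 1 and 4 the count was 3, all positive and all among the 6.

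In dex, 3 of the 83 genes were lower at 36 h than at 2 h and 0 were higher, which is 3.61% where 2.43% of all genes passed (1.04% higher and 1.41% lower), and 22 had an unadjusted p under 0.05. They were Chac1, by -0.67 ± 0.09 (limma's adjusted p = 0.0016), Atf4, by -0.54 ± 0.11 with 2 of 3 probes passing (adjusted p = 0.02), and Oplah, by -0.54 ± 0.11 (adjusted p = 0.0255). Atf4 missed the threshold without any 1 of dex 36 h replicate 1 and dex 2 h replicates 1, 3 and 4 (adjusted p = 0.0585 to 0.0641), and Oplah without any 1 of dex 36 h replicates 1, 3 and 4 and dex 2 h replicate 2 (adjusted p = 0.0562 to 0.0785). The count was 6 without DMSO 2 h replicate 1, 1 without dex 36 h replicate 1 and 7 without dex 36 h replicate 2. In DMSO, 1 gene passed, which is 1.2% where 1.26% of all genes passed (0.27% higher and 0.993% lower), and 13 had an unadjusted p under 0.05. That gene, Bcat2, was lower at 36 h by 0.51 ± 0.11 on the log2 scale (limma's adjusted p = 0.0486) and missed the threshold without any 1 of 11 arrays (adjusted p = 0.0613 to 0.178), which were dex 2 h replicates 1, 3 and 4, DMSO 2 h replicates 1 and 2, dex 36 h replicates 1 and 2 and all 4 of DMSO 36 h.

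The genes whose pattern over the 16 arrays was most like that of Glul were ranked by Pearson's r over 29352 probes that name 1 gene, as a description with no test, since all arrays share the dex and DMSO grouping. The 8 highest were Map3k6 (r = 0.99), Fkbp5 (0.99), Peli2 (0.98), Rab3d (0.98), Vdr (0.98), Nrip1 (0.98), Cav2 (0.98) and Net1 (0.98). Map3k6 is a MAP kinase kinase kinase, Rab3d a small GTPase of secretory vesicles, Vdr the vitamin D receptor and Nrip1 a nuclear receptor corepressor. The second probe of Cav2 also ran with Glul (0.94), while those of Nrip1 (0.53), Net1 (0.50) and Vdr (-0.41) did not to that degree. The other 2 probes of Peli2 had r of 0.05 and 0.82. The 4 lowest were Fam43a (-0.95), Enc1 (-0.94), S1pr1 (-0.94) and Pcdh18 (-0.93).

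Among the other 5 genes, Slc1a5 was the most like Glul and Slc38a2 the most opposed. The 3 Slc1a5 probes had r of 0.94, 0.92 and 0.91, placing them at ranks 82, 127 and 152. Glud1 had r = 0.78 and Got1 0.74. The Asns probes had -0.18 and 0.07, and those of Slc38a2 had -0.92 and -0.86, at ranks 29347 and 29299. For the 8 most similar genes, the probe with the highest r was taken. In DMSO these probes differed between 36 h and 2 h by -0.59 to -0.28, and in dex by -0.15 to 0.15. Glul differed by -0.95 and -0.20.

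**Figure D4:**
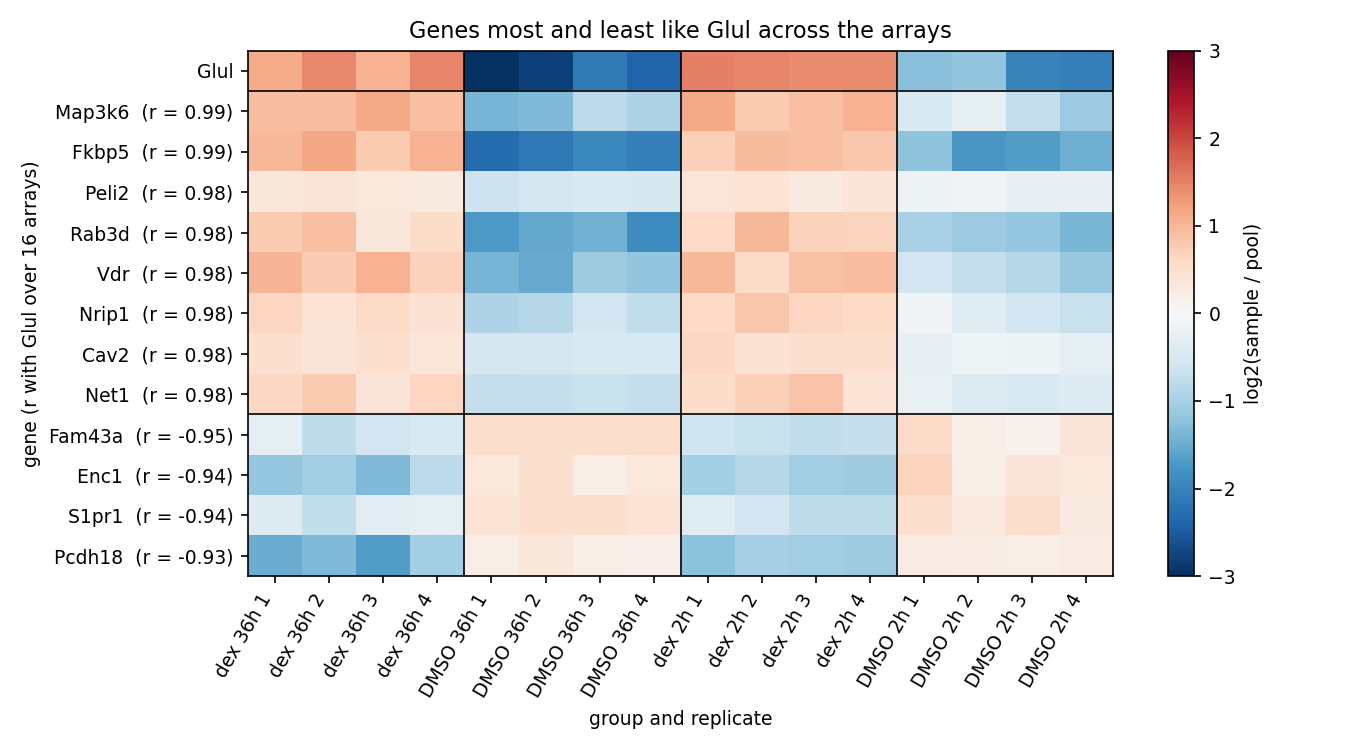
Log2 ratio of sample over pool (colour) on each of the 16 arrays (columns, grouped as dex 36 h, DMSO 36 h, dex 2 h and DMSO 2 h) for Glul, the 8 genes with the highest and the 4 with the lowest correlation with it. Glul and the 8 genes are high in both dex groups and low in both DMSO groups, and the 4 lowest genes show the opposite order.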

How the data were processed

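RNA of 16 samples was measured on 2-colour arrays, Cy5 sample over Cy3 pool, per the labels. The deposited values are log ratios, used as log2. The submitters' processing notes name limma. Log base, background correction and normalization: not given in the sources used here. Scanner intensities were not used. No further normalization was applied, and 131 values were missing, on 3 dex 2 h arrays. Probe names came from the platform's annotation, updated through RefSeq, which held 28735 of the 29456 probes that name 1 gene. With limma 3.58.1 in R 4.3.3, the means of the 4 groups were fitted per probe over all 16 arrays (residual degrees of freedom 12, prior 3.19), with Benjamini-Hochberg adjustment over 38467 probes per contrast. A gene passed where 1 of its single-gene probes had an adjusted p under 0.05. The quoted probe has the smallest p of the moderated F test. Listed genes were named by size, up to 4 passing and 2 not passing per list. The fit was tested on simulated data. The genes and lists were chosen with earlier results of these data known. Replicate numbers were not used as pairs in the main fit. Same-number deviations correlated from -0.103 to 0.344 between dex and DMSO of the same time. Between 2 h and 36 h of the same treatment they correlated from -0.100 to 0.107. Each array was also compared with the 4 of the other treatment at its time, and 7 of 16 were closest to their own number. This does not settle whether samples of the same number were paired. Alternatives were single arrays left out, a replicate block, quantile normalization, array weights, averaged probes, only the 2 groups' arrays, and the design text's log-odds rule. Median centring, a robust variance prior and only probes complete on all arrays were also among them. The number of arrays limits the precision.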

Additional observations from a re-analysis of the deposited data

Results flagged for a closer look

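In 5 of 40 groups of 4 arrays 1 array lay far from the other 3 of its group, where chance alone marks about 1 in 20 groups. On the Asns probe mMC002713 these were dex 2 h replicate 3, at 0.079, and DMSO 2 h replicate 1, at 0.56. On the Slc1a5 probe mMC009240 it was dex 36 h replicate 2, at 0.73. On the Slc38a2 probe mMC012337 these were dex 36 h replicate 3, at -0.75, and DMSO 2 h replicate 1, at 0.58. All are log2 ratios of sample over pool, and each is on a probe that was not the quoted one of its gene.

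In 5 genes of the wider lists the dex effect on the quoted probe differed between 36 h and 2 h by limma's interaction contrast. Atf4, the other of the 6 genes counted, passed on another probe only, at -0.44. The 36 h minus 2 h differences were 0.88 for Bcat2, 0.63 for Gclm and 1.14 for Mthfd2, with the effect higher at 36 h. They were -0.55 for Chac1 and -0.48 for Atf5, where a negative value does not mean a weaker effect. Dex minus DMSO was -0.33 at 36 h and 0.22 at 2 h for Chac1, and -0.60 and -0.11 for Atf5.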

How the results depend on the processing

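The differences of the 6 genes were recomputed under 24 alternatives each (23 for the change of the dex effect), without the log-odds rule, which gives calls only. Of these 714 values, 713 moved by less than the spread between replicates, which concerns their size and not a call. The other was Slc38a2 at 36 h, at -0.66 with probes averaged per gene (-0.55 on the quoted probe). By construction, a difference between 2 groups keeps its value when an array of another group is left out. The replicate block, the 2-group fit, the robust variance prior and the use of complete probes only leave it unchanged as well. The count of 713 therefore does not show stability. Counts of other pathway genes are another measure, and they changed. Median centring, the robust variance prior and the use of complete probes only left each count as it was. At 36 h the 17 genes became 9 by log-odds above 0, 28 with quantile normalization, 51 with array weights and 35 with only the 2 groups' arrays, and 11 to 24 with 1 array left out. At 2 h the 4 became 2 with quantile normalization and 1 with only the 2 groups' arrays, and 2 to 6 with 1 array left out. For the change of the dex effect the 6 became 3 by log-odds, 3 with the replicate block, 11 with quantile normalization and 15 with array weights, and 3 to 8 with 1 array left out. For DMSO over time the 1 became 0 with the replicate block or only the 2 groups' arrays and 4 with quantile normalization, and 0 to 1 with 1 array left out. For dex over time the 3 became 5 with quantile normalization, 22 with array weights and 1 with only the 2 groups' arrays, and 1 to 7 with 1 array left out. Gad1 at 36 h ran from -0.97 without dex 36 h replicate 3 to 0.0080 without replicate 4, and its change of the dex effect from -0.92 to 0.061. Whether samples with the same replicate number were paired is not known. The log-odds rule gave as many calls as the adjusted p, or fewer. The 2-group fit has fewer arrays, and it gave more calls at 36 h and fewer in the other comparisons it was run for. The causes of these changes were not tested. Of the named genes' values under these alternatives, 1748 kept direction and side of the threshold, 107 fell below it, 73 passed it newly and 2 changed sign.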
